A study of Mus musculus with 18 samples.

Results

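Collagen chain genes were followed in the livers of mice with diet-induced steatohepatitis that received GDF15, vehicle or matched food restriction. The genes were taken by name, as every entry of the deposited liver count table whose symbol has the form Col, a type number, a and a chain number. This rule gave 39 of the 16245 genes in the table. By class they were 9 fibrillar chains, 6 chains of the basement membrane type IV, 5 chains of type VI, 8 FACIT chains, 2 multiplexins, 2 network-forming short chains, 4 transmembrane chains and 3 others. A further 5 symbols of these classes (Col2a1, Col11a1, Col6a4, Col19a1 and Col10a1) were not analysed here.

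The 18 mice were wild-type C57BL/6J males, single-housed at 29 °C and kept on a NASH diet rich in fat and fructose from 8 weeks of age, so that all 3 groups carried the diet and none was a lean control. The 6 Vehicle mice were injected with vehicle. The 6 GDF15 mice received recombinant GDF15 under the skin once daily in the morning. The labels list doses of 0.3, 1 and 5 nmol/kg for the study and do not say which one these mice received. The 6 PairFed mice were given the amount of food that the GDF15 mice had eaten, which separates the food intake from the rest of the treatment. RNA came from whole liver, so for every gene below fewer cells of a type and less RNA per cell cannot be told apart.

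Collagens are trimers of chains wound into a triple helix. The fibrillar types I, III and V build the banded fibres that stiffen a scarred liver, and hepatic stellate cells and portal fibroblasts are their known source when they turn into myofibroblasts. Type IV forms the sheet-like network of basement membranes, type VI forms beaded microfibrils at the cell surface, and the FACIT chains sit on the surface of fibrils and link them to other matrix. Multiplexins are basement membrane-associated collagens with interrupted helices. Type XVIII is the precursor of the fragment endostatin, and hepatocytes are known to make it.

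The type IV genes come in pairs that start next to each other on opposite strands, and 3 such pairs were in the table. In RefSeq (GRCm38.p6, the build called mm10 in the labels), Col4a2 starts on the plus strand at chr8:11312805 and Col4a1 on the minus strand at chr8:11312826, so that their first exons share 22 bases. These are shown because both genes fell together and because a read that lies wholly within this stretch would match both genes. The reads given in the study's methods were longer than the stretch before trimming. The plus strand of chr8:11312801-11312830 reads as follows, with capitals for the shared 22 bases.
Col4a1/Col4a2 start: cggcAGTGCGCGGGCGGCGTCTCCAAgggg
The Col4a3 and Col4a4 starts lie 71 bases apart on chromosome 1, and those of Col4a5 and Col4a6 lie 1308 bases apart on the X chromosome. Col3a1 and Col5a2 are neighbours on chromosome 1 as well, with their ends 24614 bases apart, and both fell.

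The 250 bases in front of the start of 3 fibrillar genes are printed below for comparison with the expression that follows. Col3a1 and Col5a1 fell under GDF15, whereas Col5a3, which codes for another chain of the same type V collagen as Col5a1, did not pass the test. Capitals mark matches on either strand to 4 promoter motifs, namely the TATA box TATAAA, the CCAAT box CCAAT, the Sp1 site GGGCGG and the AP-1 site TGANTCA. All windows are from RefSeq on GRCm38.p6, 5′ to 3′ on the strand of the gene.
Col3a1, chr1:45311288-45311537, plus strand: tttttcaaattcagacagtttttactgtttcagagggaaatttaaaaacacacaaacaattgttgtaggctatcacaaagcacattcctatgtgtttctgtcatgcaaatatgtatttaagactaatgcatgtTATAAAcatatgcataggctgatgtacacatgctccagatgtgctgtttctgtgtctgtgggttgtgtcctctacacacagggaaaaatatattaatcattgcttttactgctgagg
Col5a1, chr2:27886175-27886424, plus strand: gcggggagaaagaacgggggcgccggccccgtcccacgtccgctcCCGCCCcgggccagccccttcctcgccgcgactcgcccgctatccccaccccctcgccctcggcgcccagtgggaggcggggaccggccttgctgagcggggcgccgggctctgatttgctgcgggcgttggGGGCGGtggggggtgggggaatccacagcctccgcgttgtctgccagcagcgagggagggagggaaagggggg
Col5a3, chr9:20815068-20815317, minus strand: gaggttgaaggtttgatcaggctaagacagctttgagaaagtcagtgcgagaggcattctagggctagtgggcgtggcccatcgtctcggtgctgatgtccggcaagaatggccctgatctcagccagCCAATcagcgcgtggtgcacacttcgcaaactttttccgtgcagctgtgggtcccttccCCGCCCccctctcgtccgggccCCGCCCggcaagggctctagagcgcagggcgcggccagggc
The Col3a1 window held TATAAA, 117 bases before the start, and none of the other motifs. The windows of Col5a1 and Col5a3 both held GGGCGG, and Col5a3 also held CCAAT, 122 bases before the start. Of the 34 windows found for 31 collagen genes, 20 held GGGCGG, compared with 32.7% of all 32851 windows of this length. The other motifs were in 11 collagen windows (CCAAT, 33.8% of all windows), 4 (TATAAA, 12.4%) and 1 (TGANTCA, 6.75%). A match is a string of letters in this window and not evidence that a factor binds there.

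Libraries held 16508864 to 35301853 counts, and log2(CPM + 1) values of any pair of libraries correlated across genes at 0.975 to 0.997. In the PairFed group, replicates 1 to 3 had 17180057 to 17926397 counts and replicates 4 to 6 had 25047723 to 35301853. All 6 hepatocyte markers were abundant, with a summed level of 68463 to 104863 CPM, in keeping with the tissue label. Levels are given as normalized counts, which are counts divided by the size factor of the library. The floor of 3 counts corresponded to 0.0850 to 0.182 CPM and covers counting error only. Averaged over the 18 libraries, 25 of the 39 genes reached 10 normalized counts and 18 reached 50.

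GDF15 lowered most of the abundant collagen transcripts, and it did so against both comparison groups. Against Vehicle, 16 of the 35 collagen genes that could be tested fell and 3 rose at an adjusted p under 0.05 (DESeq2 Wald test, Benjamini-Hochberg adjustment over all genes), where 17.5% of all genes tested fell and 15.8% rose. Against PairFed, 17 of 34 fell and 1 rose, where 13.8% of all genes fell and 13.3% rose. The median log2 fold change of the 39 genes was -0.89 against Vehicle and -0.62 against PairFed, and the median of all genes was -0.00 and -0.01. Scaling by total counts in place of size factors, a choice added after the data were seen, moved the median of all genes by -0.17 and -0.16 and the share of all genes that fell or rose to 32.3% and 4.72% against Vehicle and to 30.9% and 4.36% against PairFed. On that scale 17 collagen genes fell and 1 rose in each comparison. With a log2 fold change beyond 1 also required, 14 fell against Vehicle (background 5.37%) and 8 against PairFed (2.75%), and none rose (0.9% and 0.627%).

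PairFed and Vehicle did not differ at this threshold in any collagen gene or any other gene tested (DESeq2, 0% in each direction), and edgeR also called 0 collagen genes. At an unadjusted p under 0.05, 8 of the 39 collagen genes were lower and 5 higher in PairFed. Of all 16245 genes, 431 were lower and 287 higher by the same rule. The median log2 fold change of the 39 was -0.28, and that of all genes was -0.0045. Each group serves in a pair of these comparisons, so the 3 sets of values are not independent of each other.

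**Figure D1:**
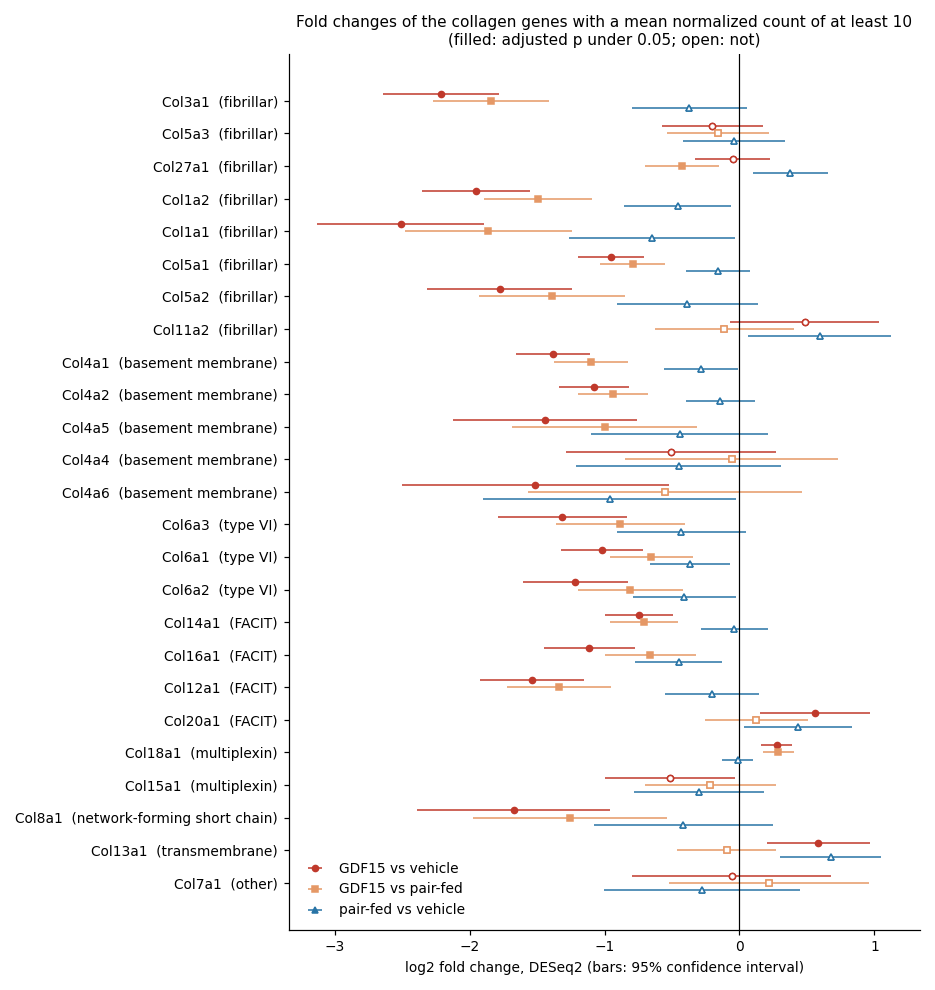
Log2 fold changes (x axis) of the 25 collagen genes that averaged 10 or more normalized counts (y axis, with class), for GDF15 against Vehicle (red circles), GDF15 against PairFed (orange squares) and PairFed against Vehicle (blue triangles). Bars are 95% confidence intervals and filled symbols passed an adjusted p of 0.05. The filled symbols lie left of 0 apart from Col20a1, Col18a1 and Col13a1, and all PairFed against Vehicle symbols are open.

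In 12 collagen genes the highest GDF15 mouse was below the lowest of the 12 other mice, a pattern that 3.39% of all genes showed. They were Col1a1, Col1a2, Col3a1, Col5a1, Col5a2, Col4a1, Col4a2, Col6a1, Col6a2, Col6a3, Col12a1 and Col14a1. Col18a1 alone among the collagen genes showed the opposite separation (2.94% of all genes), in normalized counts but not in CPM. Against Vehicle by itself, 14 collagen genes were separated downwards (6.32% of all genes), the additional members being Col16a1 and Col8a1, and 1 upwards (5.2%). Against PairFed by itself, 12 were separated downwards (4.69%) and 1 upwards (4.31%).

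The fibrillar chains showed the largest falls past the threshold, and also the clearest exceptions. Col1a1, the α1 chain of type I collagen, had normalized counts of 840, 1272 and 2267 in Vehicle (lowest, median and highest of 6 mice). The values were 126, 247 and 386 in GDF15 and 594, 849 and 1501 in PairFed. The GDF15 mice lay below every other mouse, whereas Vehicle and PairFed overlapped. Col1a1 was 5.70-fold lower than in Vehicle (log2 fold change -2.51 ± 0.32 SE, adjusted p = 2.88e-13) and 3.64-fold lower than in PairFed (-1.86 ± 0.32, adjusted p = 1.88e-07).

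Col1a2, the partner chain of type I, ranged from 966 to 1903 in Vehicle (median 1292), from 234 to 484 in GDF15 (median 368) and from 723 to 1505 in PairFed (median 934). It was 3.86-fold lower than in Vehicle (-1.95 ± 0.20, adjusted p = 7.85e-19) and 2.81-fold lower than in PairFed (-1.49 ± 0.20, adjusted p = 3.87e-11). Col3a1, the only chain of type III, was the most abundant fibrillar transcript in Vehicle and PairFed, whereas Col5a3 and Col27a1 were above it in GDF15. It had 1732, 2300 and 4128 normalized counts in Vehicle, 492, 545 and 751 in GDF15, and 1352, 1916 and 3152 in PairFed. Its fall was 4.63-fold against Vehicle (-2.21 ± 0.22, adjusted p = 5.79e-21) and 3.58-fold against PairFed (-1.84 ± 0.22, adjusted p = 1.48e-14).

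The type V chains, which sit inside type I fibrils and set their diameter, did not move alike. Col5a2 had 119 to 284 normalized counts in Vehicle, 22.9 to 75.4 in GDF15 and 80.8 to 218 in PairFed, with log2 fold changes of -1.78 and -1.39 (adjusted p = 5.1e-09 and 1.04e-05). Col5a1 had 324, 344 and 520 in Vehicle, 172, 198 and 229 in GDF15 and 297, 360 and 377 in PairFed. It was 1.94-fold lower than in Vehicle (-0.95 ± 0.12, adjusted p = 1.71e-12) and 1.73-fold lower than in PairFed (-0.79 ± 0.12, adjusted p = 1.09e-08).

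Col5a3, the third type V chain, had 1288, 1714 and 2028 normalized counts in Vehicle, 953, 1438 and 2414 in GDF15 and 1112, 1691 and 2096 in PairFed. The groups overlapped, and the highest and the lowest of all 18 values were both GDF15 mice. The log2 fold change was -0.20 against Vehicle (95% interval -0.58 to 0.18, adjusted p = 0.449) and -0.16 against PairFed (-0.53 to 0.22, adjusted p = 0.584). In a fit of replicates 1 to 3 of each group it was -0.71 against Vehicle (adjusted p = 0.000943), and in a fit of replicates 4 to 6 it was 0.25 (adjusted p = 0.492). The difference between these sets of mice was not tested, and the labels name no batch.

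Col27a1, a fibrillar chain best known from cartilage, had 808, 846 and 942 normalized counts in Vehicle, 649, 742 and 1246 in GDF15 and 885, 1056 and 1382 in PairFed. Vehicle mice were tightly grouped and most PairFed mice lay above them. Against Vehicle the log2 fold change under GDF15 was -0.05 (95% interval -0.33 to 0.23, adjusted p = 0.820), and against PairFed it was -0.43 ± 0.14 (adjusted p = 0.0129). The latter did not pass in the fit of replicates 4 to 6 (-0.37, adjusted p = 0.221). Col11a2 (mean normalized counts of 14.2, 20.0 and 21.4 in Vehicle, GDF15 and PairFed) and Col24a1 (9.16, 8.87 and 8.19) passed in neither comparison.

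**Figure D2:**
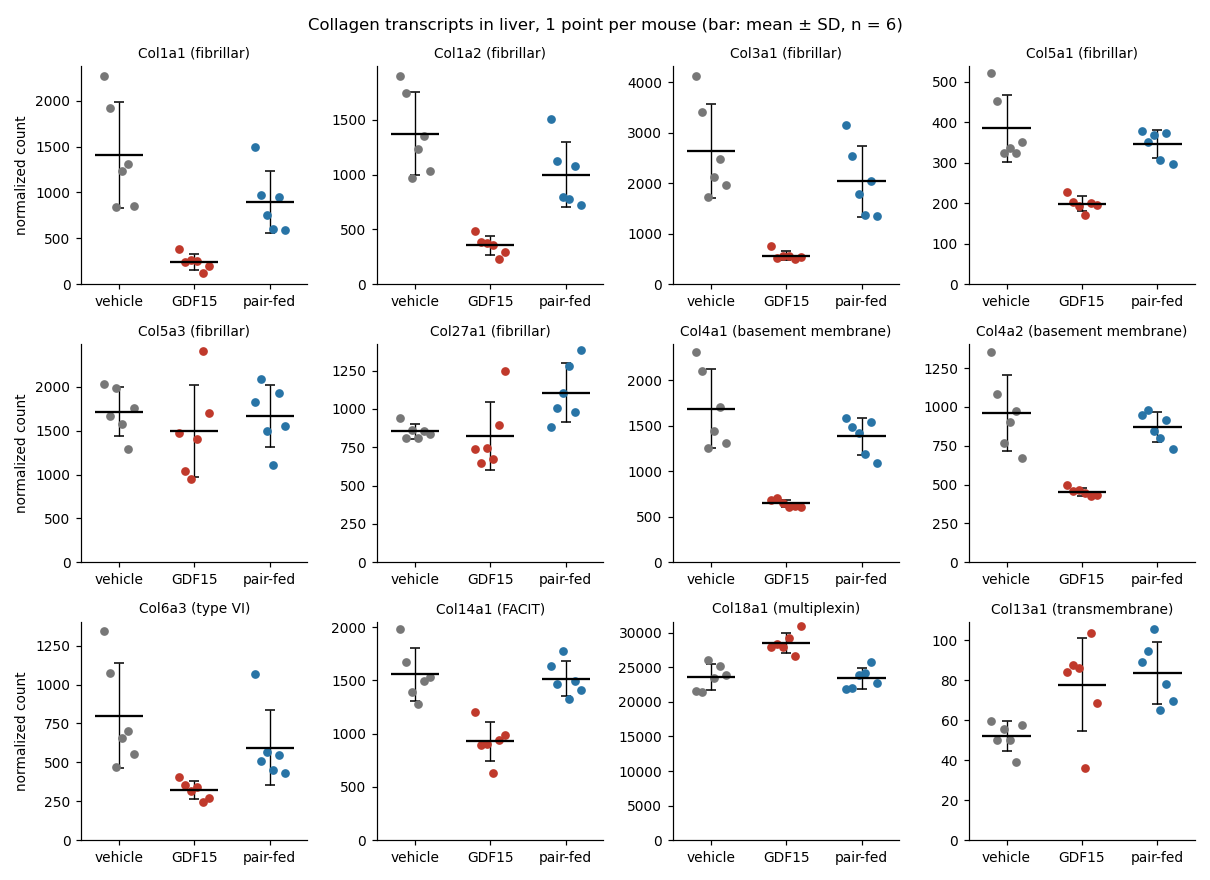
Normalized counts (y axis, from 0) of 12 collagen genes in each mouse of the Vehicle, GDF15 and PairFed groups (x axis), with the mean as a bar and the SD as whiskers (n = 6). GDF15 points lie under all others in the panels of Col1a1, Col1a2, Col3a1, Col5a1, Col4a1, Col4a2, Col6a3 and Col14a1, above all others for Col18a1, and among the others for Col5a3 and Col27a1.

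Both widely expressed basement membrane chains fell under GDF15, and the GDF15 mice lay close together. Col4a1 had 1253, 1569 and 2307 normalized counts in Vehicle, 606, 632 and 701 in GDF15 and 1087, 1453 and 1588 in PairFed. It was 2.61-fold lower than in Vehicle (adjusted p = 4.01e-20) and 2.14-fold lower than in PairFed (adjusted p = 8.5e-13). Its SD over 6 mice was 436 in Vehicle, 40.6 in GDF15 and 203 in PairFed.

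Col4a2, which joins Col4a1 in the common type IV trimer, had 669, 942 and 1357 in Vehicle, 427, 452 and 500 in GDF15 and 729, 881 and 980 in PairFed. It was 2.11-fold and 1.91-fold lower (adjusted p = 7.64e-14 and 2.05e-10). The share of reads that the authors' counting could have moved between both genes through their 22 shared bases was not tested. Col4a5 fell as well (log2 fold change -1.44, adjusted p = 0.000306, and -0.9995, adjusted p = 0.0199). Its PairFed mice ranged from 29.7 to 113 and overlapped the GDF15 range of 21.7 to 34.7. Col4a6 passed against Vehicle (-1.51, adjusted p = 0.0118) but not against PairFed (-0.55, adjusted p = 0.460). Col4a3 and Col4a4, which are among the chains of the kidney glomerular membrane, had group means of at most 17.0 normalized counts and passed in neither comparison.

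All 3 chains of the common type VI trimer fell, with log2 fold changes from -1.31 to -1.02 against Vehicle. Col6a1 had 346, 455 and 598 normalized counts in Vehicle, 175, 238 and 292 in GDF15 and 305, 367 and 440 in PairFed (log2 fold change -1.02, adjusted p = 3.16e-09, and -0.65, adjusted p = 0.000344). Col6a2 had 214, 322 and 467 in Vehicle, 106, 139 and 187 in GDF15 and 202, 222 and 367 in PairFed (-1.22, adjusted p = 3.48e-08, and -0.81, adjusted p = 0.000546). Col6a3 had 471, 680 and 1346 in Vehicle, 248, 329 and 405 in GDF15 and 430, 529 and 1070 in PairFed (-1.31, adjusted p = 1.73e-06, and -0.88, adjusted p = 0.0025). Every GDF15 mouse lay below every other mouse for all 3. In the fit of replicates 1 to 3 the Col6a3 difference from PairFed did not pass (-0.99, adjusted p = 0.0954). Col6a5 and Col6a6 had group means of at most 9.94 and passed in neither comparison.

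Among the FACIT chains, Col14a1, Col16a1 and Col12a1 fell against both groups. Col14a1 (undulin), the most abundant of them, had 1275, 1510 and 1980 normalized counts in Vehicle, 633, 922 and 1208 in GDF15 and 1323, 1483 and 1774 in PairFed. Its GDF15 mice were below all others, and Vehicle and PairFed had nearly the same median. The falls were 1.68-fold (adjusted p = 1.62e-07) and 1.63-fold (adjusted p = 1.04e-06).

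Col12a1 had 91.9, 114 and 147 in Vehicle, 30.7, 37.9 and 52.0 in GDF15 and 73.8, 89.3 and 143 in PairFed, and was 2.90-fold and 2.53-fold lower (adjusted p = 5.24e-13 and 7.88e-10). Col16a1 had 119, 162 and 217 in Vehicle, 55.9, 76.4 and 101 in GDF15 and 91.5, 125 and 155 in PairFed. Its PairFed mice lay between both other groups and overlapped them, and the falls were 2.16-fold and 1.58-fold (adjusted p = 3.89e-09 and 0.00114). Col20a1 was higher in GDF15 than in Vehicle at a low level, with 15.63, 22.2 and 29.1 in Vehicle, 27.6, 31.7 and 40.3 in GDF15 and 25.0, 29.5 and 37.9 in PairFed. The rise of 0.56 ± 0.21 on the log2 scale (adjusted p = 0.0263) was lost without Vehicle replicate 1, 2 or 6 or GDF15 replicate 2 (adjusted p from 0.0529 to 0.0839) and with scaling by total counts (0.39, adjusted p = 0.137). Against PairFed, the log2 fold change of Col20a1 was 0.13 (95% interval -0.26 to 0.51, adjusted p = 0.676), and -0.03 with total counts.

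Col18a1 stood apart in level and in direction. Per kilobase of the longest coding transcript, it had 4217, 5101 and 4181 normalized counts in Vehicle, GDF15 and PairFed, compared with 474, 102 and 367 for Col3a1, the next most abundant chain in Vehicle. The size of this lead depends on the length used. Over all mice it was 4500 to 314 with the longest transcript and 5255 to 2374 with the median length of the coding transcripts. The normalized counts of Col18a1 were 21366, 23700 and 26076 in Vehicle, 26708, 28163 and 31036 in GDF15 and 21799, 23320 and 25722 in PairFed. On this scale GDF15 mice were above all others, with a rise of 0.27 ± 0.06 on the log2 scale against Vehicle (adjusted p = 3.31e-05) and 0.29 ± 0.06 against PairFed (adjusted p = 1.94e-05). As a share of all counts the groups overlapped, with 1135, 1181 and 1277 CPM in Vehicle, 1245, 1286 and 1348 in GDF15 and 1108, 1167 and 1277 in PairFed. Scaled by total counts, the rise was 0.10 ± 0.04 and 0.12 ± 0.04 and still passed (adjusted p = 0.0294 and 0.0104). The summed level of the 6 hepatocyte markers was also higher, at 95801 to 104863 CPM in GDF15, 77960 to 89147 in Vehicle and 68463 to 102051 in PairFed. With size factors, the median log2 fold change of the markers was 0.48 and 0.47. Scaled by total counts, their log2 fold changes ran from -0.0009 to 0.60 against Vehicle and from 0.04 to 0.53 against PairFed. The part of this shift in the Col18a1 rise was not tested.

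Col15a1, the other multiplexin, had 313, 343 and 498 normalized counts in Vehicle, 148, 225 and 511 in GDF15 and 211, 278 and 454 in PairFed. GDF15 replicate 4, with 511, was the highest of all 18 mice, while 3 others of its group were the lowest. Over all mice the log2 fold change was -0.51 against Vehicle (95% interval -0.997 to -0.03, adjusted p = 0.0939) and -0.22 against PairFed (adjusted p = 0.556). Without GDF15 replicate 4 it was -0.81 (adjusted p = 0.000607) and -0.51 (adjusted p = 0.047). Scaled by total counts over all mice, it was -0.71 against Vehicle (adjusted p = 0.0172).

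Of the low-level classes, the short chain Col8a1, known from vessel walls, fell. It had 26.8, 42.1 and 74.1 normalized counts in Vehicle, 11.3, 14.3 and 19.5 in GDF15 and 12.4, 37.0 and 61.4 in PairFed (log2 fold change -1.67, adjusted p = 5.32e-05, and -1.26, adjusted p = 0.00412). Col13a1, a transmembrane collagen, behaved differently, with 39.2, 53.0 and 59.6 in Vehicle, 36.0, 85.0 and 104 in GDF15 and 65.1, 83.9 and 106 in PairFed. All 6 PairFed mice were above all 6 Vehicle mice, which no other collagen gene showed and 0.111% of all genes did, but in CPM these groups overlapped (1.99 to 3.22 in Vehicle and 3.15 to 5.41 in PairFed). Separation in the other direction was found in 0 collagen genes and 0.0985% of all genes. In the GDF15 group 5 mice were above all Vehicle mice and replicate 4, at 36.0, was the lowest of the 18. The log2 fold change was 0.58 ± 0.19 for GDF15 against Vehicle (adjusted p = 0.0119, and 0.42 with an adjusted p of 0.113 when scaled by total counts), 0.68 ± 0.19 for PairFed against Vehicle (unadjusted p = 0.000409, adjusted p = 0.665) and -0.09 for GDF15 against PairFed (adjusted p = 0.749).

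Col23a1, another transmembrane collagen, had group means of 6.37, 4.67 and 9.76 in Vehicle, GDF15 and PairFed and passed against PairFed alone (log2 fold change -1.08, adjusted p = 0.0414). Col7a1, Col26a1, Col8a2, Col22a1 and Col9a3 passed in neither comparison and averaged at most 10.1 normalized counts over all mice. Col28a1, with a mean of 2.19, did not pass against Vehicle and was given no adjusted p against PairFed. Col25a1, Col17a1, Col9a1 and Col9a2 had means of at most 1.26 over all mice and were given no adjusted p against Vehicle.

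Added up, the collagen transcripts other than Col18a1 made up 578, 705 and 1159 CPM in Vehicle (lowest, median and highest), 289, 309 and 371 in GDF15 and 509, 651 and 892 in PairFed. GDF15 mice were again below all others, and the mean was 2.45-fold lower than in Vehicle and 2.07-fold lower than in PairFed. By class, the mean summed CPM in GDF15 was 2.59-fold lower than in Vehicle for fibrillar chains, 2.73-fold for basement membrane chains, 2.61-fold for type VI and 1.95-fold for FACIT chains. Against PairFed the same classes were 2.16-fold, 2.29-fold, 1.96-fold and 1.84-fold lower. In each of these 4 classes the GDF15 mice did not overlap either group. With Col18a1 included the sum fell less, to a median of 1597 CPM from 1940 in Vehicle and 1879 in PairFed. In this sum the GDF15 mice (1544 to 1670 CPM) lay below Vehicle (1779 to 2325) but overlapped PairFed (1640 to 2056). Col18a1 took 50.1% to 68.2% of all collagen counts in Vehicle, 77.7% to 81.5% in GDF15 and 56.6% to 69.7% in PairFed.

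**Figure D3:**
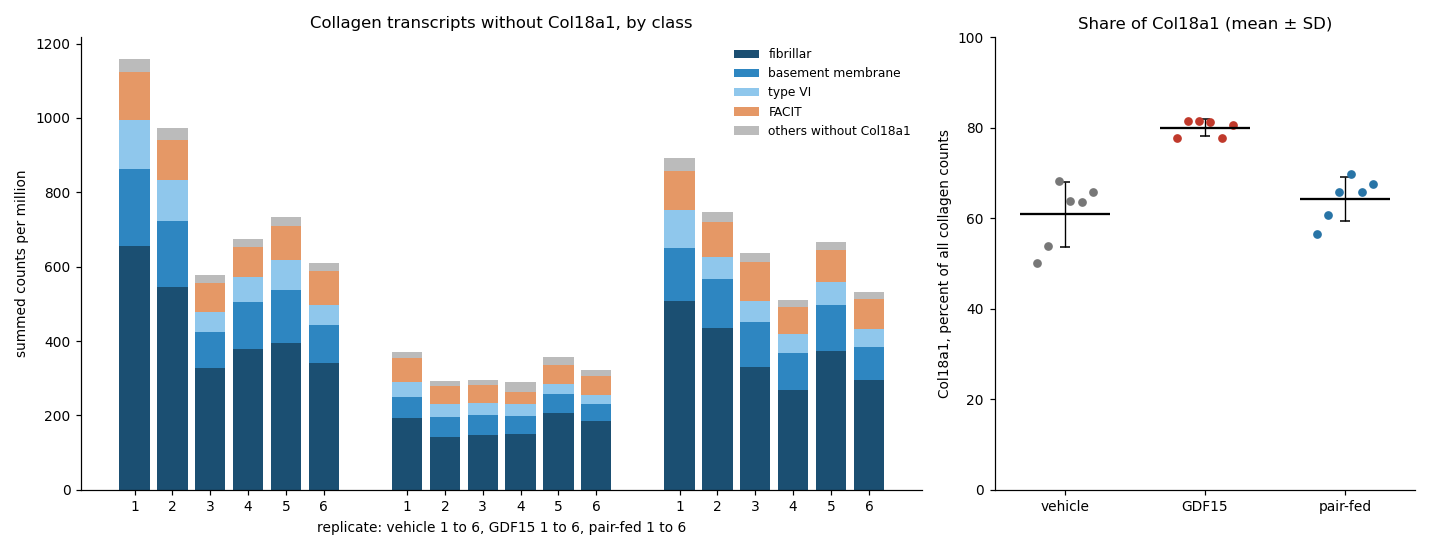
Left, summed CPM (y axis) of the collagen genes without Col18a1 in each mouse (x axis, replicate numbers within Vehicle, GDF15 and PairFed), stacked by class. Right, the percent of all collagen counts that Col18a1 took in each mouse, with mean and SD (n = 6), which is 77.7% to 81.5% in GDF15 and at most 69.7% elsewhere.

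The make-up of what remained differed between groups as well. Leaving out Col18a1, the median share of Col1a1 in the collagen counts was 9.17% in Vehicle, 3.74% in GDF15 and 6.45% in PairFed, and that of Col3a1 was 16.5%, 8.15% and 14.8%. The share of Col5a3 was 10.7%, 19.6% and 13.2%, which made it the largest single share in GDF15 livers. Col27a1 took 6.01%, 10.8% and 8.10%. These shares must add up to the whole, so that a fall of some chains raises the others.

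Ratios of chain transcripts within each mouse gave a test of unequal change. Of 12 listed pairs, 9 had enough counts, which gave 27 exact two-sided permutation tests over the 924 splits of 12 mice. Several pairs share a chain, so that these tests are not independent. Col1a1 is in the pairs with Col1a2, Col3a1, Col5a1 and Col4a1, and its fall enters each of these ratios. The smallest p this design allows is 0.00216, which becomes 0.00974 after adjustment over the 27. The ratio of Col1a1 to Col1a2 counts was 0.825, 0.985 and 1.19 in Vehicle, 0.539, 0.695 and 0.797 in GDF15 and 0.779, 0.877 and 0.997 in PairFed. Every GDF15 mouse had less Col1a1 per Col1a2 than every Vehicle mouse. The difference in the mean log2 ratio was -0.54 against Vehicle (exact p = 0.00216, adjusted p = 0.00974) and -0.38 against PairFed (exact p = 0.00433, adjusted p = 0.0167).

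Col5a1 fell less than Col1a1, and their ratio was 0.229 to 0.410 in Vehicle, 0.593 to 1.59 in GDF15 and 0.251 to 0.508 in PairFed. This was a log2 difference of 1.55 against Vehicle and 1.06 against PairFed, each with the smallest exact p and no overlap. Col4a1 fell less than Col1a1 in the same way, with log2 differences of 1.14 (adjusted p = 0.00974, exact test) and 0.77 (adjusted p = 0.0292). Within type V, Col5a2 fell more than Col5a1, by 0.84 on the log2 scale against Vehicle (exact test, adjusted p = 0.00974). Against PairFed the difference of -0.59 did not pass (exact test, adjusted p = 0.0918), but it did without PairFed replicate 4 (-0.70, adjusted p = 0.0219).

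Within type IV, the ratio of Col4a2 to Col4a1 was 0.511, 0.581 and 0.631 in Vehicle, 0.655, 0.717 and 0.728 in GDF15 and 0.593, 0.629 and 0.675 in PairFed. The log2 difference was 0.31 against Vehicle (exact test, adjusted p = 0.00974) and 0.16 against PairFed (adjusted p = 0.0325). The second of these no longer passed without GDF15 replicate 1, 3, 5 or 6 (adjusted p from 0.0526 to 0.0584). The ratio of Col3a1 to Col1a1 was higher in PairFed than in Vehicle by 0.25 on the log2 scale (exact p = 0.013, adjusted p = 0.0351), the one ratio that passed between these groups. Their ranges overlapped, at 1.72 to 2.31 in Vehicle and 2.10 to 2.59 in PairFed. It did not pass without any one of Vehicle replicates 1, 2, 4 and 5 or PairFed replicates 2, 3 and 6 (adjusted p from 0.0526 to 0.0691). Without PairFed replicate 1, the ratios of Col5a1 and of Col4a1 to Col1a1 passed beside it (exact tests, 0.63 and 0.49, adjusted p = 0.0438 and 0.0365). In type VI, the log2 ratios of Col6a2 and of Col6a3 to Col6a1 differed by -0.17 and -0.22 from Vehicle and did not pass (exact tests, adjusted p = 0.0928 and 0.173). Both passed when Vehicle replicate 3 was left out (-0.21 and -0.30, adjusted p = 0.0438 and 0.0409).

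**Figure D4:**
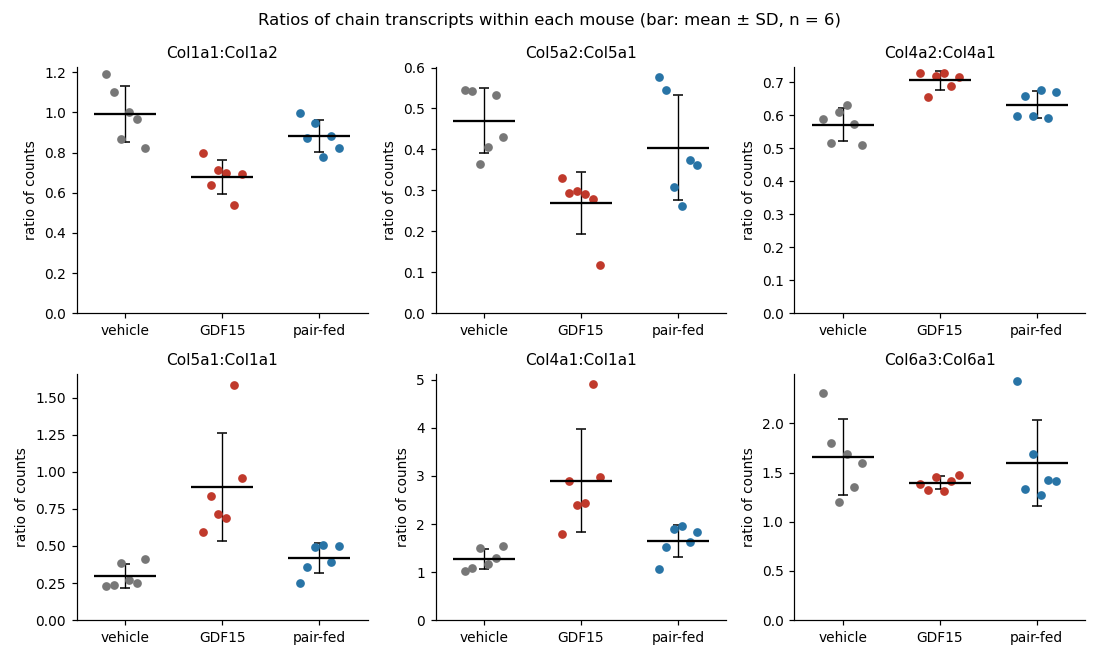
Ratio of counts (y axis, from 0) of 6 pairs of chain transcripts within each mouse of the Vehicle, GDF15 and PairFed groups (x axis), with mean and SD (n = 6). Col1a1:Col1a2 and Col5a2:Col5a1 are lower in GDF15 than in every Vehicle mouse, and Col4a2:Col4a1, Col5a1:Col1a1 and Col4a1:Col1a1 are higher, while Col6a3:Col6a1 overlaps.

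The more abundant chains that fell tended to be high or low in the same mice. Among the 13 genes that fell against Vehicle and had a mean of at least 50, Vehicle replicate 1 was the highest of its group in 11, GDF15 replicate 1 in 11 and PairFed replicate 1 in 10. PairFed replicate 6, the largest library, was the lowest of its group in 9. Leaving out each mouse in turn changed the count of falling collagen genes to 15 to 17 against Vehicle and to 16 or 17 against PairFed.

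The proteins that modify, export, cross-link and degrade collagen were examined as a list of 51 genes. Against Vehicle 25 of them fell and 3 rose, and against PairFed 21 fell and 4 rose (the background is that given above). Of the cross-linking lysyl oxidases, 4 of 5 fell in both comparisons. Lox had mean normalized counts of 26.3 ± 16.5 (SD, n = 6) in Vehicle, 3.16 ± 2.37 in GDF15 and 15.8 ± 10.6 in PairFed (log2 fold change -3.04, adjusted p = 1.66e-06, and -2.28, adjusted p = 0.000711). Loxl2, with the lowest p of the group, had 243 ± 69.9, 124 ± 10.8 and 197 ± 33.0 (-0.96, adjusted p = 1.55e-07, and -0.66, adjusted p = 0.000686), whereas Loxl4 did not pass.

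Among 6 genes of folding and export, 3 fell in both comparisons. Serpinh1 (HSP47), the chaperone of procollagen, had 583 ± 180, 273 ± 40.7 and 458 ± 132 normalized counts in Vehicle, GDF15 and PairFed (log2 fold change -1.09, adjusted p = 2.78e-07, and -0.74, adjusted p = 0.000999). Creb3l1, a transcription factor of the secretory pathway, had 57.7 ± 11.2, 21.8 ± 3.97 and 56.3 ± 15.33 (-1.40, adjusted p = 6.52e-09, and -1.35, adjusted p = 3.12e-08), and Fkbp10 was the third gene that fell. Mia3, which helps to load procollagen into transport carriers, rose in both comparisons, with log2 fold changes of 0.23 and 0.13, but not when scaled by total counts (0.05 and -0.03). Tmem38b, an ion channel of the endoplasmic reticulum, passed against PairFed alone (0.20, adjusted p = 0.00771, and 0.04 when scaled by total counts).

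Of the 7 genes of propeptide processing, Adamts2, which cuts the N-propeptide, and Pcolce, the enhancer of C-propeptide cleavage, fell by 1.07 and 0.79 on the log2 scale against Vehicle (adjusted p of Adamts2 = 3.44e-10). Bmp1, the C-proteinase itself, rose from 2419 ± 255 in Vehicle to 3182 ± 368 in GDF15, with 2453 ± 162 in PairFed (log2 fold change 0.40, adjusted p = 2.33e-05, and 0.37, adjusted p = 9.03e-05). Of the 15 genes of hydroxylation and glycosylation, 5 fell and 1 rose against Vehicle. The gene that rose was Ppib (cyclophilin B, a folding enzyme), with 3530 ± 209, 4544 ± 543 and 3548 ± 149 normalized counts (log2 fold change 0.36, adjusted p = 2.09e-06, and 0.36, adjusted p = 4.75e-06). Scaled by total counts, the rises against Vehicle and PairFed were smaller, at 0.22 and 0.21 for Bmp1 and 0.19 and 0.19 for Ppib. They still passed (DESeq2, adjusted p from 0.00443 to 0.0128). The prolyl 4-hydroxylase genes P4ha1, P4ha2 and P4hb did not pass (log2 fold change -0.25, -0.32 and 0.06).

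Receptors and matrix proteases were the remaining groups of the list. Among 9 receptor genes 6 fell and 0 rose against Vehicle and 3 fell against PairFed, these being Ddr2, Lair1 and Mrc2. Mrc2, the endocytic receptor that takes up collagen, had 155 ± 57.3, 65.1 ± 17.9 and 108 ± 28.5 (-1.25, adjusted p = 4.61e-06, and -0.72, adjusted p = 0.015). Among 9 collagenases and inhibitors 5 fell in each comparison. Timp1, the inhibitor that rises in fibrosis, had 44.0 ± 20.3 in Vehicle, 5.30 ± 4.51 in GDF15 and 33.5 ± 20.7 in PairFed (log2 fold change -2.99, adjusted p = 2.25e-08, and -2.59, adjusted p = 2.5e-06). Mmp13, the main interstitial collagenase of mice, had 32.6 ± 7.24, 7.72 ± 3.73 and 39.7 ± 14.2 (-2.04, adjusted p = 2.25e-08, and -2.32, adjusted p = 9.83e-11), and Mmp14 did not pass.

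Markers of the cells that could supply collagen moved along with it. Against Vehicle, 6 of 8 stellate cell markers, 5 of 6 markers of activated myofibroblasts and 4 of 6 of portal fibroblasts fell, and none rose (17.5% and 15.8% of all genes). Against PairFed 5, 4 and 2 of them fell and none rose (13.8% and 13.3%). The summed myofibroblast markers were at 28.1 to 59.0 CPM in Vehicle, 10.9 to 24.7 in GDF15 and 24.7 to 62.7 in PairFed. The stellate sums were at 235 to 312 CPM in Vehicle, 129 to 258 in GDF15 and 273 to 339 in PairFed, so that GDF15 lay below PairFed and overlapped Vehicle, and portal fibroblast sums were at 12.5 to 32.7, 6.28 to 12.3 and 10.5 to 34.3. The most abundant myofibroblast and portal fibroblast markers, Tagln and Eln, fell by 0.98 and 1.45 in log2 units relative to Vehicle (adjusted p = 3.09e-05 and 0.000154), whereas Ecm1, the most abundant stellate marker, had a log2 fold change of 0.18 (adjusted p = 0.336). Lox and Timp1 are in the myofibroblast list and in the lists above.

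Of the other cell types, cholangiocytes and macrophages had the most markers that fell, against the same shares of all genes. All 5 cholangiocyte markers fell against Vehicle and 1, Spp1, fell against PairFed. The sums were 112 to 466 CPM in Vehicle, 45.2 to 89.6 in GDF15 and 105 to 320 in PairFed. Spp1 made up most of these sums, with a mean of 3080 normalized counts over all mice against 45.3 to 124 for the other markers. Of 6 macrophage markers 4 fell against Vehicle and 3 against PairFed. Their sums overlapped, at 101 to 210 CPM in Vehicle, 68.6 to 142 in GDF15 and 101 to 176 in PairFed. In each of the lists that follow, at most 1 marker passed in either direction against Vehicle. Of 7 sinusoidal endothelial markers 1 fell and 1 rose against Vehicle, and their sums overlapped in all groups (179 to 264, 122 to 230 and 192 to 263 CPM). Of 4 mesothelial markers 1 fell, of 3 smooth muscle markers 1 fell, and of 2 erythroid markers 0 passed. The adipocyte markers summed to at most 0.233 CPM, near the detection floor, and Adipoq had no count in 13 of the 18 libraries. The most abundant marker of each of these lists had a log2 fold change against Vehicle of -1.99 for Spp1 of cholangiocytes, 0.15 for Clec4f of macrophages, -0.07 for Stab1 of sinusoidal endothelium, -0.37 for Upk3b of mesothelium, -0.58 for Smtn of smooth muscle and -0.20 for Hba-a1 of erythroid cells. Of these 6, Spp1 and Smtn passed (adjusted p = 6.60e-07 and 4.58e-05). The part of these shifts in the collagen values was not tested.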

How the data were processed

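Per the labels and the study's methods, RNA of 18 livers was sequenced from strand-specific libraries, trimmed with Trim Galore and quantified with Salmon against mm10. Tool versions, strand setting and annotation are not given in the sources used here. The authors deposited 1 table of estimated counts per gene symbol, already rounded to whole numbers and not scaled by depth (16508864 to 35301853 per sample). All 18 columns were used.

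Groups came from the sample titles. The Wald test of DESeq2 (1.42.0, under R 4.3.3), which the study's methods name, was run on all 18 samples together with group as the only factor. Size factors were medians of ratios. Calls needed an adjusted p under 0.05 over all genes, and fold changes were not shrunken. The procedure was tested on simulated data. The members and lists were chosen with earlier results of these data known. Named with group ranges were, in each class, up to 6 members that averaged 50 or more normalized counts, and any member that rose under GDF15. Of each pathway list the gene with the lowest p against Vehicle and any that rose were named, and of each marker list the most abundant gene and any at 0. Ranges of Col5a2, Col4a5 and Col8a1 and other pathway genes were added after their values were seen. Lists were described by counts without a set test. Coordinates and transcript lengths are from GENCODE M21 (GRCm38).

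Alternatives were edgeR (version 4.0.16), TMM sizes, a filter of 10 counts in 6 samples, independent filtering switched off, separate fits of each pair of groups, replicate blocks, replicates 1 to 3 or 4 to 6, a fold threshold, 0.5 counts in place of the 1 added for ratios, and leaving out each mouse. Total counts as library sizes were added after the data were seen.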

Additional observations from a re-analysis of the deposited data

Results flagged for a closer look

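In each group of 6 mice, values that included the named genes and ratios were searched for a mouse far from the rest (Dixon's criterion at 95%). Of the 87 groups searched 6 had one, where chance gives 4.35 (1 in 20). Several ratios share a chain, so that the groups are not independent. GDF15 replicate 1 had 751 normalized counts of Col3a1, with the next mouse at 562, and this is the mouse that was the highest of its group in 11 of 13 falling genes. PairFed replicate 1 had 1070 normalized counts of Col6a3, with the next at 563, and a ratio of Col6a3 to Col6a1 of 2.43, with the next at 1.69. GDF15 replicate 5, the smallest library, had a ratio of Col3a1 to Col1a1 of 3.91, with the next at 2.63, and a ratio of Col5a1 to Col1a1 of 1.59, with the next at 0.959. Both ratios share the low Col1a1 value of that mouse, which was 126 normalized counts. GDF15 replicate 6 had a ratio of Col5a2 to Col5a1 of 0.117, with the next at 0.279.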

How the results depend on the processing

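With edgeR, TMM sizes, the filter on low counts, no independent filtering, separate fits of each pair of groups or the replicate block, the counts of collagen genes lower and higher stayed at 16 and 3 against Vehicle and at 16 or 17 and 1 against PairFed. Replicates 4 to 6 alone left 1 gene higher against Vehicle, as did scaling by total counts (17 lower), where Col20a1 against PairFed was at -0.0327. The fold threshold left 0 higher in both comparisons and 8 lower against PairFed. Leaving out 1 mouse gave 15 to 17 lower and 2 to 4 higher against Vehicle, 16 to 17 lower and 1 higher against PairFed, and 0 for PairFed against Vehicle. TMM moved the log2 fold changes by a median of -0.000807, 0.00108 and -0.0019 over all genes.

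Ratios that passed numbered 5, 4 and 1 (GDF15 against Vehicle, GDF15 against PairFed, PairFed against Vehicle), and 5 to 8, 3 to 5 and 0 to 3 with 1 mouse left out. The replicate block left 0 in an exact sign-flip test. Its smallest p over 64 sign patterns, 0.0312, became 0.0703 after the adjustment over 27 tests. Col4a2:Col4a1 against PairFed and Col3a1:Col1a1 for PairFed against Vehicle had a p of 0.0625 in this test. Sets of 3 mice cannot pass, since their smallest p is 0.1 (exact permutation test). Whether the numbers pair the mice is uncertain, since 2, 3 and 3 of the 6 same-numbered pairs correlated over 0.1 in the 3 comparisons, and 1, 2 and 1 mice correlated best with their own number.

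In replicates 4 to 6 the log2 fold change changed sign for Col5a3 (0.25 against Vehicle, 0.26 against PairFed), Col15a1 (0.0801 and 0.54) and Col27a1 (0.17 against Vehicle), none of which passed there. In replicates 1 to 3 that of Col12a1 for PairFed against Vehicle was 0.0253. Log2 ratios changed sign for Col3a1:Col1a1 against PairFed (-0.19, replicates 1 to 3), Col6a3:Col6a1 (0.0451 for PairFed against Vehicle, replicates 1 to 3, and 0.0326 against PairFed, replicates 4 to 6) and Col18a1:Col15a1 against PairFed (-0.22, replicates 4 to 6). With 1 mouse left out, log2 fold changes that crossed 0 were Col27a1 against Vehicle (-0.21 to 0.00979), Col13a1 against PairFed (-0.19 to 0.0534), and, for PairFed against Vehicle, Col5a3 (-0.12 to 0.0513), Col14a1 (-0.0899 to 0.0421) and Col18a1 (-0.0412 to 0.0183). Ratios that did so were Col3a1:Col1a1 against PairFed (-0.063 to 0.14) and, for PairFed against Vehicle, Col6a2:Col6a1 (-0.11 to 0.00332) and Col6a3:Col6a1 (-0.19 to 0.0398). None of these reversed values was past the threshold in the full data, and the cause was not tested. Over all alternatives, 1152 values of named genes and 375 of ratios kept their direction and their side of the threshold, 18 and 7 changed direction, 11 and 41 no longer passed and 7 and 9 newly passed. Depth limits the 14 genes with a mean below 10.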
